A study of Mus musculus with 2 samples.

Results

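The receptors for bone morphogenetic proteins (BMPs), activins and transforming growth factor beta (TGF-beta) were examined in adipose-derived stromal cells, fibroblast-like cells cultured from fat. The set held 10 receptor genes: Acvr1, Acvr1b, Acvr2a, Acvr2b, Bmpr1a, Bmpr1b, Bmpr2, Tgfbr1, Tgfbr2 and Tgfbr3. Each was taken as the array row whose only platform gene symbol was the receptor. All 10 of 10 were found, each on exactly 1 row, among 30142 named genes. Donor animals were C57BL/6J mice, 6 to 10 weeks of age, either wild type or global Wisp1 knockout. Cells were taken from inguinal fat, and each genotype had 1 array. Both cultures were kept in DMEM with 15% serum. The knockout allele was made by flanking exons 1 to 5 of Wisp1 (now Ccn4, a secreted matricellular protein) with flox sites and crossing to a line given as Cre-neo, and the labels do not say whether a selection cassette remains, which promoter drove Cre, or how many animals gave the cells. The study asked about how Wisp1 bears on cartilage differentiation in heterotopic ossification, in which bone forms within soft tissue.

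Receptors of this family work in complexes. A ligand brings type II receptors, whose kinases are always active, together with type I receptors, which are then phosphorylated and pass the signal to Smad proteins: Smad1, Smad5 and Smad9 for BMPs, Smad2 and Smad3 for activins and TGF-beta. Type III receptors such as betaglycan (Tgfbr3) bind ligand without a kinase of their own. Acvr1, also called ALK2, is the type I receptor that carries activating mutations in fibrodysplasia ossificans progressiva, an inherited form of heterotopic ossification. In that disease activin A signals through Acvr1 to form cartilage and bone.

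All values are log2 expression values after RMA, an array method that corrects background, makes arrays alike and summarises the probes of a transcript cluster. Differences are knockout minus wild type on that scale. With 1 array per genotype no spread between replicates could be measured and no test was made, so each difference compares these 2 arrays rather than the genotypes, and the number of arrays limits the precision. Wisp1 itself went from 7.79 on the wild-type array to 5.40 on the knockout array, a difference of -2.39. Values ran from 1.88 to 13.62 on the wild-type array and from 1.74 to 13.65 on the knockout array. A gene counted as dim when its mean of both arrays was below 4.65, the midpoint of all named genes, and none of the 10 receptors was dim. Probes differ in brightness, so levels are compared between arrays for one gene and not between genes.

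The stretch of genome just before the start of each gene is shown for 4 receptors: the 2 kinase receptors with the largest differences (Acvr2a and Tgfbr2), the disease receptor Acvr1, and Bmpr1b, whose promoter differed most from the others in base composition. Sequences are RefSeq's for the mouse build GRCm38.p6, written 5′ to 3′ on the strand of the gene, 250 bases up to the base before the start. Capitals mark GGGCGG or its complement, the GC box that Sp1-type factors bind, and CCAAT or its complement, the box that NF-Y binds. The positions are chr2:48813859-48814108 on the plus strand for Acvr2a, chr9:116175364-116175613 on the minus strand for Tgfbr2, chr2:58566829-58567078 on the minus strand for Acvr1, and chr3:141982265-141982514 on the minus strand for the first of 3 listed Bmpr1b starts.
Acvr2a: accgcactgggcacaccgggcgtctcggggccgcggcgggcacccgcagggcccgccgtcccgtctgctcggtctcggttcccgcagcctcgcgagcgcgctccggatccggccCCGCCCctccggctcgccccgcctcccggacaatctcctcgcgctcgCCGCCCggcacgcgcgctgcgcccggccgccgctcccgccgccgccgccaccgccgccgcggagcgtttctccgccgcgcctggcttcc
Tgfbr2: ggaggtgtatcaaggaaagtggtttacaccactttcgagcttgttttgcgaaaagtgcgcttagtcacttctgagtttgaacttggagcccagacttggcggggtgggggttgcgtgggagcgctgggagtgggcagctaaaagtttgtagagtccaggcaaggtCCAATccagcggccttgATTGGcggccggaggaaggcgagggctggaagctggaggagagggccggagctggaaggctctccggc
Acvr1: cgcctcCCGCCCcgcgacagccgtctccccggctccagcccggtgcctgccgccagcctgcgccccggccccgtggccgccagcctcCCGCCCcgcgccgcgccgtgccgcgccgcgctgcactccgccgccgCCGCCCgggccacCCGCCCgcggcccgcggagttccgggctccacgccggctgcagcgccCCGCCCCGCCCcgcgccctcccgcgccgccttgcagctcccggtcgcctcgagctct
Bmpr1b: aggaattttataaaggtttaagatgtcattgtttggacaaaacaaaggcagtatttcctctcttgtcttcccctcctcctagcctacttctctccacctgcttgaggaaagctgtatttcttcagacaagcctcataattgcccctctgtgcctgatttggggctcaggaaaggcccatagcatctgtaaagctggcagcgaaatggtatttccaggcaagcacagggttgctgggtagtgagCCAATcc

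Promoters were found for 9 of the 10 receptors, all but Tgfbr3. Taking the first listed start of each, 7 of the 9 held a GC box, against 32.7% of 32851 promoters of the same length searched on both strands. The 32851 include every listed start of a gene and were not matched to the receptors for GC content, here or for the motifs below. GC content was 85.6% for Acvr1, 82.0% for Acvr2a, 58.4% for Tgfbr2 and 46.8% for Bmpr1b, where the median of all promoters was 52.4%. It was 78.8% for both Acvr1b and Bmpr1a, 74.8% for Tgfbr1, 72.8% for Acvr2b and 64% for Bmpr2. Acvr1 had 6 GC boxes (neighbours can overlap by a base) and no CCAAT box, Acvr2a 2 and none, and Tgfbr2 no GC box and 2 CCAAT boxes. Bmpr1b, the BMP type I receptor of skeletal precursor cells, had no GC box and 1 CCAAT box. It also had 2 overlapping matches to TATAAA, 1 on each strand, near the end of the window farthest from the start. That motif was found in 12.4% of all promoters and in none of the other receptors shown or matched. Listed starts 2 and 3 of Bmpr1b had no GC box, CCAAT box or TATAAA, and their GC content was 52.8% and 56.4%. The CCAAT box, TATAAA and 46.8% thus describe only its first listed start. Smad-type motifs were also searched. CAGAC was present in 4 of the 9 receptors and in 42.2% of all promoters, and GGCGCC, which shared no base with a GC box in any of them, in 3 of the 9 and in 9.59% of all. Acvr2a and Tgfbr2, the kinase receptors that differed most between the arrays, thus had unlike promoters, one rich in GC and one holding CCAAT boxes. A match of letters describes the window and does not show binding.

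The receptors were mostly a little higher on the knockout array, and 3 stood out. The size used to count genes was a log2 difference of 0.32, which is 25% higher or 20% lower. Acvr2a, Tgfbr2 and Tgfbr3 were higher by more than this, and no receptor was lower by it. Of the 15072 named genes that were not dim, 3.89% passed it upward and 2.64% downward. That split depended on scaling: 586 genes were higher and 398 lower on the deposited values, but 448 and 511 after quantile normalization, whereas the count of receptors, 3 higher and 0 lower, was the same under each scaling tried. In all 8 receptors were higher and 2 lower, with a median difference of 0.11 and a range from -0.13 to 0.71. Over all genes that were not dim the median was 0.03, with 8580 genes higher and 6021 lower. Acvr2a alone was over 1.5-fold higher, a size that 0.717% of genes reached upward and 0.464% downward. A difference of 2-fold was reached by none of the receptors, by 0.0663% of genes upward and by 0.0995% downward.

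**Figure D1:**
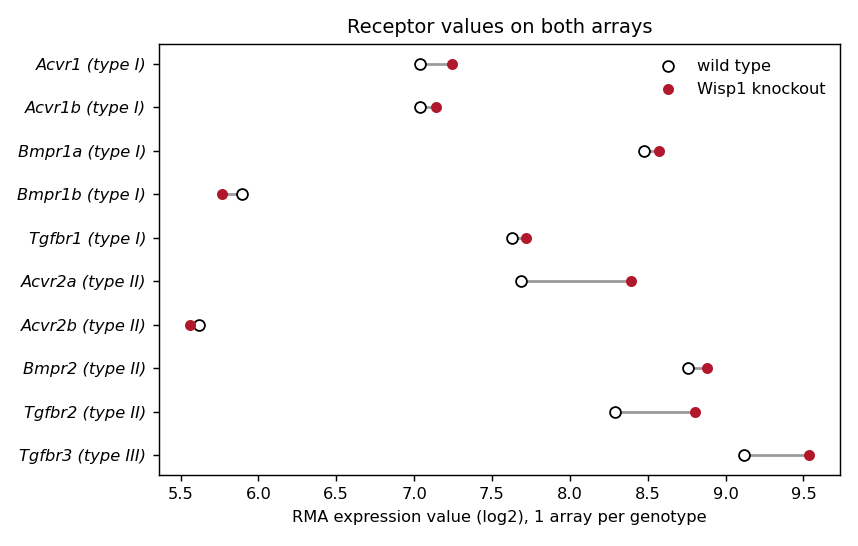
RMA expression value (log2) of each receptor on the wild-type array (open circle) and the Wisp1 knockout array (filled circle), 1 array per genotype, with receptors ordered by type. The lines are longest for Acvr2a (7.68 to 8.39), Tgfbr2 (8.29 to 8.80) and Tgfbr3 (9.12 to 9.54), and the knockout circle lies to the left only for Bmpr1b and Acvr2b.

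Type II receptors, the kinases that activate type I receptors, held both the largest difference in size and the smallest. Acvr2a, a type II receptor shared by activins, myostatin and several BMPs, measured 7.68 on the wild-type array and 8.39 on the knockout array. The difference of 0.71, a ratio of 1.63, was the 50th highest of the 15072 genes. Of 2071 genes with a mean within 0.5 of its own, 12 (0.579%, Acvr2a included) differed by at least as much in either direction. Acvr2b, its close relative that binds many of the same ligands, went the other way by a small amount, from 5.62 to 5.56 (-0.06). The differences of these paralogs were therefore 0.77 apart on the log2 scale, which could not be set against any replicate error.

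Tgfbr2, the type II receptor that TGF-beta needs in order to signal, went from 8.29 to 8.80. Its difference of 0.51, a ratio of 1.42, was at least matched in size by 45 of 1467 genes of like level (3.07%). Bmpr2, the type II receptor dedicated to BMPs, went from 8.76 to 8.88 (0.12), a size that 43.8% of genes of like level reached. Over the 4 type II receptors, then, 2 passed the 0.32 mark and 2 stayed well inside the bulk of genes.

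Type I receptors, the kinases that phosphorylate Smads, differed little. Acvr1 went from 7.04 to 7.24, a difference of 0.21 or a ratio of 1.15, and 16.7% of 3266 genes of like level differed by as much or more. It was the highest difference of the 5 type I receptors and did not reach 0.32. Acvr1b, also called ALK4 and the main activin type I receptor, went from 7.04 to 7.14 (0.10). Bmpr1a, also called ALK3 and widely expressed, went from 8.48 to 8.57 (0.10), and Tgfbr1, also called ALK5 and the partner of Tgfbr2, from 7.63 to 7.72 (0.09). These 3 differences lay in the middle of the genes of like level, of which 46.6%, 52.3% and 50.8% in that order differed by at least as much. Bmpr1b was the lowest of all 10, from 5.89 to 5.76 (-0.13), and 34.5% of genes of like level differed by as much. The median over type I receptors was 0.10 and over type II receptors 0.316, with only 5 and 4 genes behind them. The type II median fell just short of the mark, which is 0.322 before rounding, and lay between Bmpr2 (0.12) and Tgfbr2 (0.51).

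The type III receptor Tgfbr3, betaglycan, presents TGF-beta2 to Tgfbr2 and binds inhibins, which lets them compete with activins for Acvr2a and Acvr2b. It went from 9.12 to 9.54, a difference of 0.42 and a ratio of 1.34, and 38 of 815 genes of like level (4.66%) differed by as much. Both TGF-beta binding receptors of this set other than the type I kinase Tgfbr1 thus passed 0.32, with Tgfbr1 itself at 0.09.

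**Figure D2:**
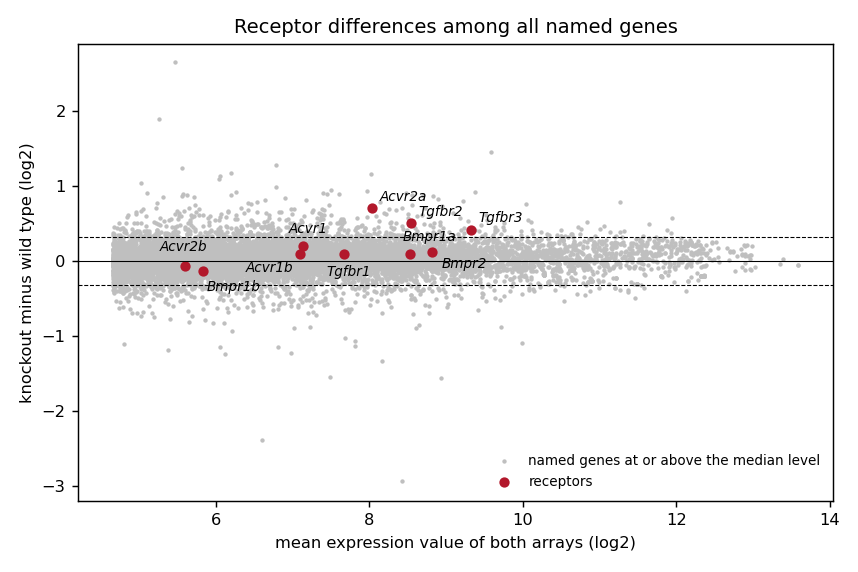
Knockout minus wild type (log2) against the mean expression value of both arrays (log2) for the 15072 named genes that were not dim (grey) and the 10 receptors (red, named), with dashed lines at 0.32 above and below 0. Acvr2a, Tgfbr2 and Tgfbr3 lie above the upper line and the other 7 receptors between the lines.

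Other receptors and coreceptors of the family were measured for 12 of the 14 on a list, and 2 were higher by 0.32 or more, none lower. Of the 12, 4 were dim. Over all genes that were not dim, 3.89% passed this mark upward and 2.64% downward. Neo1, the receptor neogenin, went from 8.68 to 9.04 (0.37), and Rgma, a BMP coreceptor that binds neogenin, from 7.47 to 7.80 (0.33, and 0.29 after quantile normalization, short of the mark). Rgmb, a coreceptor related to Rgma, went from 6.88 to 6.78 (-0.10). The list as a whole had a median of 0.01, which became -0.01 after quantile normalization or loess centring. Eng, the coreceptor endoglin, went from 9.38 to 9.17 (-0.21) and Bambi, a decoy receptor that lacks a kinase, from 4.92 to 5.16 (0.25). The remaining kinase receptors of the family were Acvrl1 (ALK1, 7.69 to 7.72, 0.03 and -0.02 after quantile normalization), Amhr2 (5.06 to 5.01, -0.05) and Acvr1c (ALK7), which was dim at 3.50 and 3.39. None of these kinase receptors reached the size seen for Acvr2a.

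Ligands for the receptors were mixed. The 28 BMP, GDF and activin ligand genes split into 12 higher and 16 lower around a median of -0.06, and 1 passed 0.32 in each direction (1 higher and 3 lower after quantile normalization or loess centring). The higher one, Gdf10, a BMP3-related ligand, went from 9.52 to 9.97 (0.45). The lower one, Bmp2, was dim, at 4.19 and 3.82. In all 14 of the 28 were dim, and of all genes that were not dim 3.89% passed 0.32 upward and 2.64% downward. Inhba, which encodes the subunit of activin A, the ligand of Acvr2a and Acvr2b, went from 8.11 to 7.81 (-0.30), and Bmp6 from 6.14 to 5.84 (-0.30); both passed the mark after quantile normalization, at -0.35 and -0.33. Among TGF-beta ligands Tgfb3 went from 9.24 to 8.97 (-0.28) and Tgfb2 from 7.68 to 7.41 (-0.27), both lower on the array where Tgfbr2 and Tgfbr3 were higher, while Tgfb1 went from 8.23 to 8.40 (0.17). None of the 3 reached 0.32.

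Secreted antagonists, which trap ligands before they reach the receptors, were lower on the knockout array wherever they passed the mark. Of 15 measured, 5 were lower by 0.32 or more and none higher, with a median of -0.14, where 2.64% of all genes that were not dim were lower by as much. Grem1, gremlin, which traps BMP2 and BMP4, went from 10.15 to 9.27 (-0.88). Crim1, a membrane-bound protein that binds BMPs, went from 9.07 to 8.21 (-0.86). Fst, follistatin, which traps activins and myostatin, the ligands of Acvr2a and Acvr2b, went from 9.32 to 8.70 (-0.62). Nbl1, a relative of gremlin, went from 9.23 to 8.76 (-0.47), and Chrdl2, a chordin-like protein, from 5.01 to 4.61 (-0.39). The mean of Chrdl2, 4.81, was only just above 4.65, below which a gene counted as dim.

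Inside the cell, 26 genes of proteins that bind receptors, retrieve them or tag them for breakdown had a median of 0.04, with none past 0.32 in either direction. The largest differences were in Ppp1r15a, which guides a phosphatase to type I receptors together with Smad7 (6.18 to 6.50, just short of the mark), and Cav1, the caveolin of the membrane pits in which receptors are taken up (9.27 to 8.96, -0.30, and -0.34 after quantile normalization, which passes it). Fkbp1a, which holds type I receptors inactive, went from 9.39 to 9.35 (-0.03). No Smad gene passed 0.32 either, and the 8 had a median of -0.07. Of all genes that were not dim, 3.89% passed 0.32 upward and 2.64% downward, which amounts to few genes in lists of 26 and 8. The BMP-pathway Smad1 and Smad5 and the shared Smad4 differed by 0.17 each, Smad2 and Smad3 by -0.07 and -0.06, the inhibitory Smad6 and Smad7 by -0.19 and -0.18, and Smad9 by -0.19.

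Genes that respond to the receptors were read from a pair of lists. Smad6, Smad7, Smad9 and Bambi stand on more than one of these lists. The 16 BMP response genes had a median of -0.08, 13 of them lower and 3 higher, but only Id4, an inhibitor of helix-loop-helix factors, passed 0.32, from 8.53 to 7.98 (-0.55). Its relatives Id1, Id2 and Id3, the best known BMP targets, differed by -0.05, -0.13 and -0.07. Of all genes that were not dim, 2.64% were lower by 0.32 or more. The 15 TGF-beta and activin response genes had a median of 0.14, 11 of them higher and 4 lower, beside 8580 higher and 6021 lower over all genes that were not dim. Of the 15, 4 were higher by 0.32 or more (5 after quantile normalization), a mark that 3.89% of all such genes passed upward. The 4 were Tgfbi, a secreted matrix protein (8.49 to 9.31, 0.83), the collagen genes Col1a2 (10.57 to 11.10, 0.52) and Col1a1 (11.40 to 11.90, 0.50), and Bhlhe40, a transcription factor (7.39 to 7.89, 0.50). Tgfbi, Col1a2 and Col1a1 were also the 3 of 118 pathway genes whose difference lay nearest to that of Acvr2a, at distances of 0.12, 0.18 and 0.20. With 1 difference per gene this only lists again the pathway genes with the largest positive differences.

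**Figure D3:**
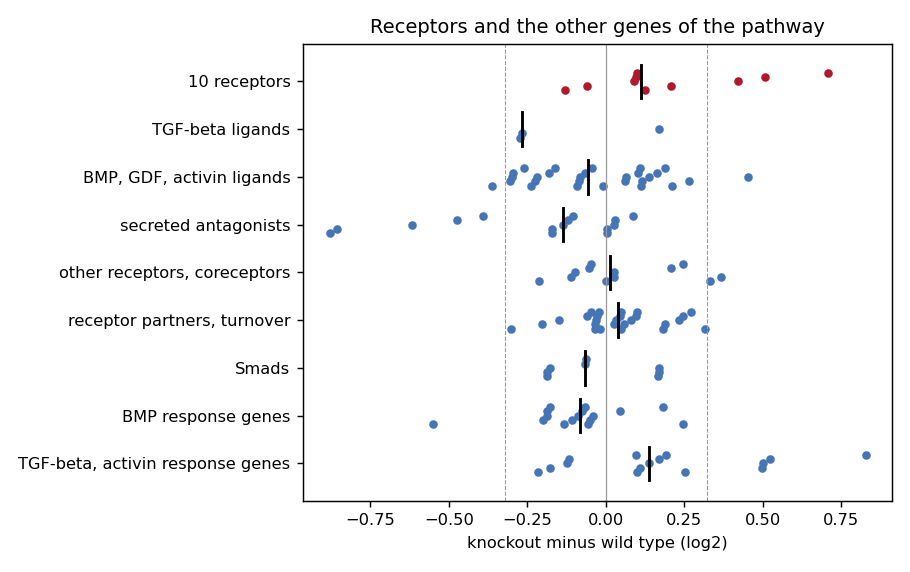
Knockout minus wild type (log2) for each measured gene of the 10 receptors (red) and of 8 lists of pathway genes (blue), with black bars at the medians and dashed lines at 0.32 on either side of 0. The receptors have a median of 0.11 with 3 genes past the right line, and the secreted antagonists a median of -0.14 with 5 past the left line.

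Markers of the cells were read on the same arrays, where 3.89% of all genes that were not dim passed 0.32 upward and 2.64% downward. By sign alone, 8580 genes that were not dim were higher and 6021 lower. With dim genes included the split was 14161 higher and 14278 lower. Stromal markers were higher in 8 of 9 measured and lower in none, with a median difference of 0.09. Of the 8, Pi16 (0.004) and Nt5e (0.01) hardly differed, and 1 marker was lower after quantile normalization or loess centring. In this list 2 passed 0.32: Lum (4.79 to 5.39, 0.60) and Col1a1 (0.50), both matrix genes. Pdgfrb (10.38 and 10.49) and Thy1 (10.34 and 10.43) were far from dim, while Dpp4 (2.79 on both) and Nt5e (3.27 and 3.28), which mark fat progenitors, were dim. Macrophage markers were higher in 8 of 12 and lower in 3, with a median difference of 0.16. Of the 12, 5 passed 0.32 upward (4 after quantile normalization or loess centring, without C1qb). Lyz2, lysozyme, went from 6.14 to 7.43 (1.29), one of only 10 genes that were not dim and at least 2-fold higher. Fcer1g (0.90), Cd68 (0.58), Tyrobp (0.51) and C1qb (0.33) were the others, whereas the defining genes Ptprc (2.86 on both), Adgre1 (3.33 and 3.25) and Csf1r (4.61 and 4.62) were dim. Pericyte and smooth muscle markers were lower in 5 of 7, with a median difference of -0.31. Past 0.32 there were 1 higher and 3 lower (1 and 4 after quantile normalization or loess centring). Mcam (8.51 to 7.82) and Myh11 (8.27 to 7.76) were among the lower, while Des went from 4.90 to 5.30 (0.41). Endothelial markers had a median difference of 0.05 over 8 genes, of which the dim Cdh5 and Emcn (0.80 each) passed 0.32. Adipocyte markers had a median difference of -0.13 over 5 genes, of which 2 were lower by 0.32 or more. These were the dim Retn (4.90 to 3.81, -1.08) and Adipoq (4.50 to 3.86, -0.64). The shares of 3.89% and 2.64% leave out dim genes such as Retn, Adipoq, Cdh5 and Emcn. Among all 30142 named genes, dim ones included, 819 passed 0.32 upward and 922 downward. Cartilage and bone markers had a median difference of -0.04 over 8 genes, none past 0.32. The part of these cell types in the differences of Acvr2a, Tgfbr2 and Tgfbr3 was not tested, and in a bulk sample fewer cells of a type and less RNA per cell cannot be told apart.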

How the data were processed

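RNA of 1 wild-type and 1 Wisp1 knockout culture was measured on Affymetrix arrays after labelling with the WT PLUS kit, per the labels. For each of 65956 transcript clusters the authors deposited a log2 expression value, made with RMA and Partek per the submitters' processing notes; versions and the genome build of the design are not given in the sources used here. RMA makes the arrays alike, which hides any shift common to most genes and compresses differences of dim genes. Clusters with exactly 1 platform symbol (30604) were named, 827 with a symbol updated by Entrez ID through RefSeq (GRCm38.p6), and the brightest cluster of a gene was kept. Differences are knockout minus wild type. A gene was counted from a log2 difference of 0.32, with 1.5-fold and 2-fold as alternatives, and genes of like level lie within 0.5 of its mean. The receptors, the 8 pathway lists and the 6 marker lists were chosen with earlier results of these data known; 172 of 184 list entries were measured, and the others are not analysed here. Named were all receptors, Wisp1, of each pathway list the genes past 0.32 that were not dim (otherwise the largest 2), and the 3 genes nearest to Acvr2a. Other list genes named, among them Eng, Bambi, Acvrl1, Amhr2, Acvr1c, Rgmb, Inhba, Bmp2, Bmp6, Tgfb1, Fkbp1a the remaining Smad and Id genes and the cell type markers, were chosen with their values in view. A planned comparison of protein sequences was not made, and promoters were used. Counting was checked on a copy of the wild-type values with known shifts and no noise added, which checks the code only and bears on no result. Alternatives were other scalings, row rules, filters and list means. Software was matplotlib 3.10.9, statsmodels 0.14.6, pandas 2.3.3 and numpy 2.4.6 under Python 3.11.15.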

Additional observations from a re-analysis of the deposited data

How the results depend on the processing

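Every difference of the 10 receptors kept its sign and moved by at most 0.1 under median centring, quantile normalization, loess centring (span 0.3), the mean over rows of a gene and rows with several symbols kept. Only quantile normalization and loess centring could change a receptor, since the median difference of all transcript clusters is 0 and each receptor has 1 row. Acvr2a ranged from 0.67 to 0.71, Tgfbr2 from 0.47 to 0.51, Tgfbr3 from 0.39 to 0.42 and Acvr1 from 0.14 to 0.21. For receptors whose difference was itself smaller than 0.1, a limit of 0.1 says little. Of these, Acvr1b ranged from 0.03 to 0.10 and Bmpr1a from 0.06 to 0.10. Tgfbr1 ranged from 0.05 to 0.09 and Acvr2b from -0.09 to -0.06. The receptor median ranged from 0.08 to 0.21, the highest being the mean of the members. The count of receptors past the fold, 3 higher at a log2 difference of 0.32, was 1 at 1.5-fold and 0 at 2-fold. Of the pathway lists, the BMP, GDF and activin ligands had a median of 0.0497 over genes that were not dim, and the means of the TGF-beta ligands and the secreted antagonists were -0.12 and -0.25. The median of the receptor partners was just below 0 after quantile normalization (-0.0037). The other 53 of 56 list alternatives moved by at most 0.1. No paired analysis was possible because each group has 1 array, and no array could be left out.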
